A study of Mus musculus with 5 samples.

Results

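The 37 collagen chain genes named in the tables of an adult mouse heart study are described here by cell type, chosen by their symbols alone (Col, a number, a, a number) from 17902 genes. Collagens are triple helices of 3 chains, and each gene encodes 1 kind of chain. Fibrillar collagens (types I, III and V) form the load-bearing fibres of the heart wall, type IV forms the sheet of the basement membrane under endothelium and around other cells, and type VI forms beaded filaments between them. Types XIV and XVI sit on fibrils, types XV and XVIII carry sugar chains at basement membranes, type VIII forms short networks in vessel walls, and type XXIII spans the cell membrane. Chains of 1 type are made in fixed partnerships, such as α1 with α2 of type I, or α3, α4 and α5 of type IV, so the balance between partner transcripts is itself of interest.

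Interstitial cells were obtained from adult mouse hearts with collagenase II after removal of cardiomyocytes, sorted on the surface proteins cKit, DDR2 and CD45, and counted cell by cell by droplet 3′ RNA sequencing. cKit is a receptor tyrosine kinase, DDR2 a receptor for collagen that fibroblasts carry, and CD45 a phosphatase of leukocytes. The 4 sorts were cKit-/DDR2+ (1 library), cKit+/DDR2- (2 libraries, replicates 1 and 2), cKit+/DDR2+/CD45- (1 library) and cKit+/DDR2+/CD45+ (1 library). All groups share the digestion, and strain, sex, exact age and number of hearts are not given in the sources used here, so the spread between libraries may be technical. The 5 libraries hold between 436 and 3898 cells and between 4047326 and 44847778 UMIs, the tags that count each captured transcript once.

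Libraries are not fully separate. Of the 436 cells of cKit+/DDR2- replicate 1, 190 (43.6%) carry a barcode that also occurs in cKit+/DDR2+/CD45+, while every other pair of libraries shares between 1 and 3. Under these barcodes the cKit+/DDR2+/CD45+ table holds a median of 622.5 UMIs and the replicate 1 table a median of 12133.5. The 190 were left out of cKit+/DDR2+/CD45+, and results that change when they are kept are given beside the result.

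Cell types were gated by 1 or 2 marker genes with at least 1 UMI: Pdgfra for fibroblasts, Kcnj8 with Vtn for pericytes, Gpihbp1 for capillary endothelium, Npr3 for endocardium (the lining of the chambers), Prox1 for lymphatic endothelium and C1qa for macrophages. Cells with markers of several types (10.7% to 37.8% of a library) were left out, and the UMIs of a type were added up within each library that had at least 20 of its cells. This gave 17 sums: fibroblasts in 3 libraries, capillary and endocardial cells in 4 each, macrophages in 3, lymphatic cells in 2 and pericytes in 1 (26 cells of cKit-/DDR2+). Marker genes not used for gating were present in every gated type. The 39 endocardial cells of cKit-/DDR2+ stand apart, because they also carry the mesothelial genes Upk3b and Msln at 192 CPM each, which have no UMI in the endocardial cells of the other 3 libraries. Levels are given as CPM, the counts of a gene scaled to the UMI total of the sum. With 1 UMI per transcript end, levels of different genes need no correction for length. Genes may still be captured unequally, which ratios between genes here do not correct for.

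Of the 37 chains, 23 reached 50 CPM in at least 1 sum, and these are described below. The other 14 reached at most 37.8 CPM, the value of Col25a1 in pericytes, which rests on 5 UMIs. The 23 range down to Col27a1, whose highest level was 59.9 CPM.

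Sequences are shown where chains lie back to back or where the promoter belongs to a chain on which the results turn. They are those of RefSeq on GRCm38.p6, which has the coordinates of mm10, and 30 of the 37 chains matched an entry. Gene positions, and the overlap and gap between neighbours, follow the GENCODE annotation instead. Capitals mark 3 short motifs on either strand. The first is the TATA box, searched as TATAAA. The second is the CCAAT box, searched by the letters of its name. The last is the GC box, searched as GGGCGG. Col4a1 and Col4a2, the chains of the common type IV collagen, are transcribed in opposite directions from chromosome 8 (Col4a1 at 11198423 to 11312826 on the minus strand, Col4a2 at 11312805 to 11449287 on the plus strand), and their annotated first bases overlap by 22 bases. Col4a4 (chromosome 1, 82448423 to 82586849, minus strand) and Col4a3 (82586921 to 82722059, plus strand) are also back to back, with 71 bases between them. Both stretches hold no TATA box, and the first holds a GC box. They are given on the plus strand:
shared start of Col4a1 and Col4a2, chr8:11312805-11312826: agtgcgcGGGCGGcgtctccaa
between Col4a4 and Col4a3, chr1:82586850-82586920: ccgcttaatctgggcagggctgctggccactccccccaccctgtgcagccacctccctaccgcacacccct

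The 250 bases upstream of 3 further RefSeq starts are shown. They belong to the leading fibroblast chain (Col3a1) and to the fibrillar chain that endocardial cells also held (Col1a2). The last belongs to a chain with higher levels in endocardial and lymphatic cells than in the other types (Col23a1), though it led in neither. By the GENCODE positions Col1a2 begins at 4504814, so its stretch lies inside the gene there. All are on the plus strand:
Col3a1, chr1:45311288-45311537: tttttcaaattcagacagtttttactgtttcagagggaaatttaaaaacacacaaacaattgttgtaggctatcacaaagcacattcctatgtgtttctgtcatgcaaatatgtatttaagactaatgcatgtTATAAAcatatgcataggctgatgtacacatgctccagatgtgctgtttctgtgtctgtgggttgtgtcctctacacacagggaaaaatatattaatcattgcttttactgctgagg
Col1a2, chr6:4505368-4505617: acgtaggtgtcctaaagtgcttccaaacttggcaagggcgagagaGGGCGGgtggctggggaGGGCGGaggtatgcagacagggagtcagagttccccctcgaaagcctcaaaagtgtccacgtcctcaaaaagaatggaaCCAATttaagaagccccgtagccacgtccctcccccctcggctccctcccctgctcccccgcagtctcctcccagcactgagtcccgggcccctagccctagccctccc
Col23a1, chr11:51289670-51289919: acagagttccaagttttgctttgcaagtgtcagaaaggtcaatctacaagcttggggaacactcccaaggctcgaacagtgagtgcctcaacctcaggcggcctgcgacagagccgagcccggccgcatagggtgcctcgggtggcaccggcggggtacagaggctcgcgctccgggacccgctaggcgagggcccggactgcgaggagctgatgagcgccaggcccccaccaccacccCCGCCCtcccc
The Col3a1 stretch is 35.2% G or C and the Col23a1 stretch 66%, against a median of 52.4% over all 32851 windows. TATAAA is in 1 of 21 windows of described chains (4.76%, that of Col3a1) and in 12.4% of all windows. GGGCGG is in 14 of the 21 (66.7%) and in 32.7% of all, and CCAAT in 7 (33.3%) and 33.8%. A match describes the letters of these windows and not a site that is bound.

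Collagen transcripts were a small part of the RNA of every type, and the part differed by type. They made up 0.956% of fibroblast UMIs in cKit-/DDR2+, 1.005% in cKit+/DDR2- replicate 2 and 1.20% in cKit+/DDR2+/CD45-. In capillary cells they made up between 0.171% and 0.309%, in pericytes 0.255%, in lymphatic cells 0.088% in both libraries and in macrophages between 0.0076% and 0.0097%. Endocardial cells had between 0.078% and 0.098% in 3 libraries and 0.206% in cKit-/DDR2+. Fibroblasts were 30.6% of the cells and held 67.2% of the collagen UMIs of the cKit-/DDR2+ library. In cKit+/DDR2+/CD45- the 36 gated fibroblasts, 2.71% of the cells, held 23.1% of the collagen UMIs, less than the 38.2% held by the 524 capillary cells.

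**Figure D1:**
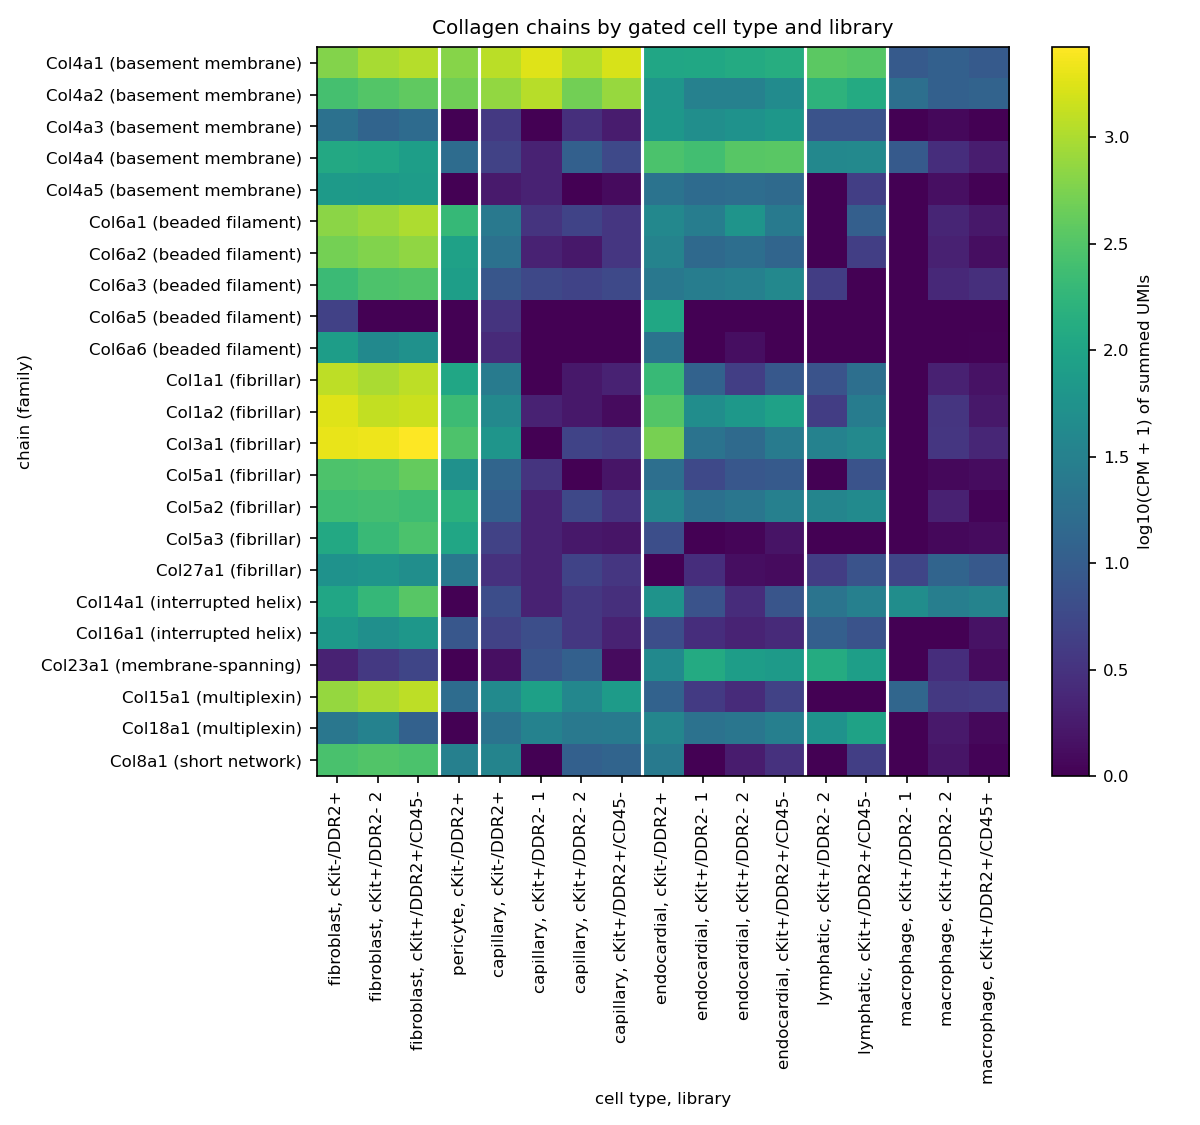
Levels of the 23 described chains (rows, with their family) in each cell type and library (columns), as log10 of CPM plus 1, with tables in which a chain is not listed drawn at 0. Fibroblasts are bright across the fibrillar and beaded filament rows, capillary cells in Col4a1 and Col4a2, and endocardial cells in Col4a4.

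Fibrillar chains made up 52.3% to 59.6% of fibroblast collagen UMIs, with beaded filament chains at 15.6% to 17.4%, type IV chains at 11.5% to 14.5% and multiplexins (types XV and XVIII) at 8.33% to 10.1%. Type IV chains made up 85.5% to 94.96% in capillary cells. In endocardial cells outside cKit-/DDR2+, type IV chains made up 57.3% to 62.4%, and the membrane-spanning chains, mainly Col23a1, 9.02% to 16.4%. Lymphatic cells had 57.4% and 65.3% type IV and 10.2% and 15.1% membrane-spanning. In macrophages the chains with interrupted helices, mainly Col14a1, led with 35.1% to 47.8%. The 47.8% is that of cKit+/DDR2- replicate 1, whose macrophages held 23 collagen UMIs.

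**Figure D2:**
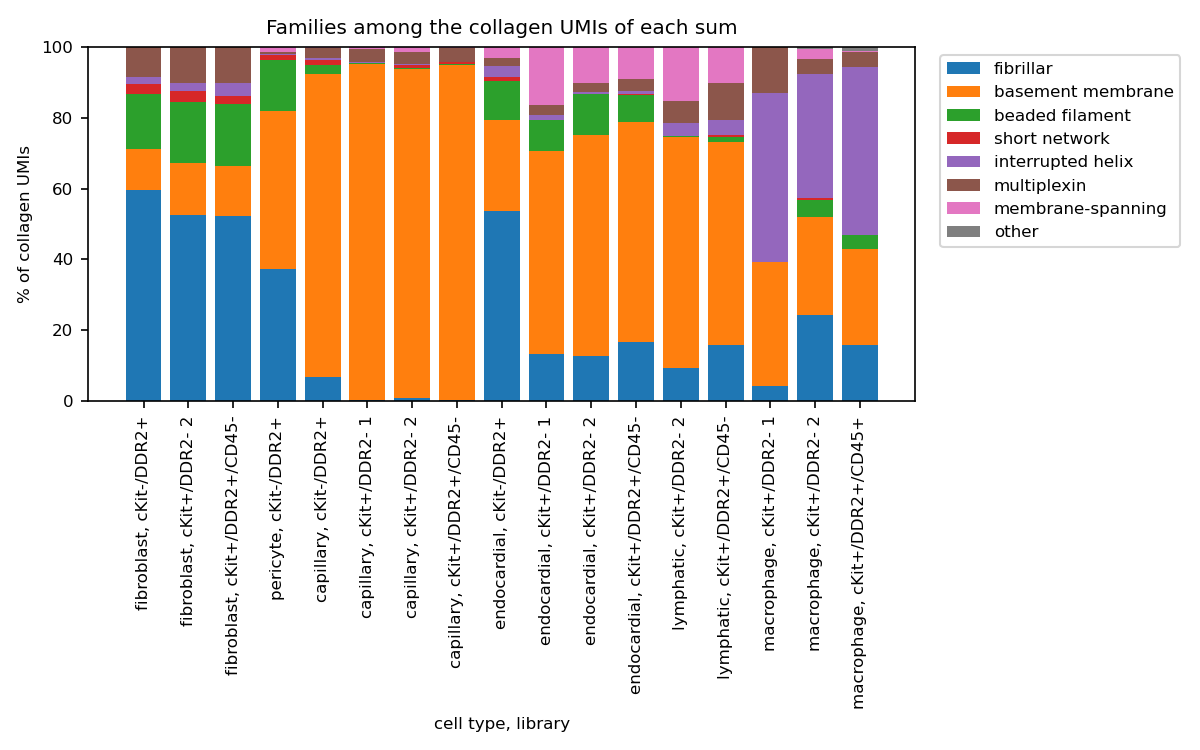
Share of each collagen family (colours) among the collagen UMIs of each cell type and library, each bar adding to 100%. Type IV (basement membrane) fills 85.5% to 94.96% of the capillary bars, and fibrillar chains 52.3% to 59.6% of the fibroblast bars.

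Fibroblasts carried the fibrillar chains. Col3a1, the single chain of type III collagen, stood at 2015, 2200 and 2657 CPM in the libraries cKit-/DDR2+, cKit+/DDR2- replicate 2 and cKit+/DDR2+/CD45-. Col1a2, the α2 chain of type I, stood at 1782, 1280.1 and 1403 CPM in the same order, and Col1a1, the α1 chain, at 1203, 979 and 1219 CPM. Col3a1 led in all 3 libraries, and Col1a2 exceeded Col1a1 in all 3. The ratio of Col1a2 to Col1a1 UMIs was 1.48 (1.45 to 1.52), 1.31 (1.21 to 1.42) and 1.15 (1.03 to 1.29). As a protein, type I collagen is built from more α1 than α2 chains, which a ratio of UMIs does not measure. Intervals given here and below are exact 95% intervals that cover counting error only.

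The type V chains, which start and thin the fibrils, were lower. Col5a1 had 294, 316 and 413 CPM, Col5a2 236, 251 and 228 CPM, and Col5a3 115, 206 and 280 CPM in cKit-/DDR2+, cKit+/DDR2- replicate 2 and cKit+/DDR2+/CD45-. Col5a3 was the most uneven of the 3 over libraries. Col27a1, a fibrillar chain of cartilage, had 54.6, 59.9 and 48.0 CPM.

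Among the other chains of fibroblasts, Col15a1 of type XV was below both type I chains in each library, with 774, 970.5 and 1200.2 CPM in that order of libraries, and above the type VI and type IV chains. The 3 main type VI chains kept 1 order in all 3 libraries: Col6a1 with 683 to 1002 CPM, Col6a2 with 513 to 716 CPM and Col6a3 with 217 to 315 CPM. Their ratios were steady, Col6a1 to Col6a2 at 1.33, 1.34 and 1.40 and Col6a3 to Col6a2 at 0.423, 0.487 and 0.440. Col8a1 of type VIII had 271, 307 and 286 CPM, Col16a1 67.7, 49.9 and 64.7 CPM and Col6a6 78.5, 40.9 and 52.2 CPM. Col14a1, on the surface of fibrils, had 104, 191 and 342 CPM. Fibroblasts also held type IV transcripts, Col4a1 at 621, 939.6 and 1113 CPM and Col4a2 at 262, 317 and 390.3 CPM.

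Against capillary cells, 18 of the 22 chains that passed the expression filter were higher in fibroblasts and 1 was lower. The test was limma on log2 of CPM plus 1 with the library as a block (3 fibroblast and 4 capillary libraries). Calls needed a Benjamini-Hochberg adjusted p below 0.05 and at least 2-fold. Over all 5163 genes tested, 13.7% were higher and 17.1% lower. The 22 chains that passed the expression filter had a median of 5.34 on the log2 scale, against -0.13 over all genes, and since a chain can pass the filter through the type in which it is high, neither the count nor the median supports more than the single values. Col1a2 was higher by 8.25 ± 0.77 (SE, adjusted p from limma 4.6e-06), Col1a1 by 8.09 ± 0.78 and Col3a1 by 7.95 ± 0.79. The smallest called rise was that of Col4a3, with 2.70 ± 0.39. Outside cKit-/DDR2+ the capillary levels of Col1a2, Col1a1 and Col3a1 were near 0, where the added 1 CPM makes folds smaller than the ratio of the levels. In cKit-/DDR2+ capillary cells these chains were higher (values below), so the fitted folds join unlike libraries. Over 17 settings the log2 difference ranged from 4.37 to 9.47 for Col1a2, from 4.97 to 9.38 for Col1a1 and from 5.05 to 9.38 for Col3a1. Counts of chains at other settings, below, are given without the share of all genes and show only how the count moved.

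Col4a2 was the single chain called lower in fibroblasts, with a log2 difference of -1.19 ± 0.29 (adjusted p from limma 0.0047). Capillary cells had 733, 1147, 497 and 792 CPM of it in cKit-/DDR2+, cKit+/DDR2- replicates 1 and 2 and cKit+/DDR2+/CD45-, all above the fibroblast levels. Without the cKit-/DDR2+ library the difference was -0.996 and no longer 2-fold, so no chain was called lower, and with cells of several types kept in each type Col4a2 did not pass (-0.41). Col4a1 differed by -0.66 ± 0.17 (adjusted p from limma 0.0072), under 2-fold. Col18a1 (-0.34 ± 0.44) and Col23a1 (0.16 ± 0.61) did not pass the test.

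RNA of other cells in these sums was measured with genes that are not collagens. In cKit-/DDR2+, capillary cells held Dcn, Gsn, Lum and Dpt, abundant genes of fibroblasts, at 2.10%, 2.45%, 3.42% and 4.27% of the fibroblast level. Col1a1 (2.12%), Col1a2 (2.22%) and Col3a1 (3.02%) lay in the same range there, at 25.5, 39.6 and 60.8 CPM. In capillary cells of the other 3 libraries these 3 chains were between 0 and 3.84 CPM. Col8a1 and Col15a1 lay above all 4 of these genes within each library with fibroblasts. The 4 genes spanned 0.179% to 0.377% in cKit+/DDR2- replicate 2 and 0.0689% to 0.181% in cKit+/DDR2+/CD45-. Col8a1 was at 12.6%, 3.34% and 4.13% of the fibroblast level in cKit-/DDR2+, cKit+/DDR2- replicate 2 and cKit+/DDR2+/CD45-, and Col15a1 at 5.41%, 3.89% and 6.32%. In the reverse direction, the 6 capillary markers summed to 1037 CPM in fibroblasts of cKit+/DDR2+/CD45- and to 29330 CPM in its capillary cells, while Col4a1 had 1113 and 1659 CPM.

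Capillary collagen was almost all Col4a1 and Col4a2. Col4a1 had 1171, 1788, 1080.5 and 1659 CPM in cKit-/DDR2+, cKit+/DDR2- replicates 1 and 2 and cKit+/DDR2+/CD45-. The 2 replicates of cKit+/DDR2- were the highest and the lowest of the 4, so the spread within 1 sort was as wide as that over the sorts. The ratio of Col4a1 to Col4a2 UMIs was 1.60 (1.53 to 1.66), 1.56 (1.44 to 1.69), 2.18 (2.00 to 2.37) and 2.09 (2.00 to 2.19). It was higher in fibroblasts, at 2.37, 2.97 and 2.85, and in endocardial cells of cKit+/DDR2- and cKit+/DDR2+/CD45-, at 3.47, 3.98 and 3.06. Endocardial cells of cKit-/DDR2+ gave 1.73 (0.996 to 3.07), within the range of capillary cells. In macrophages the balance was lower, with ratios of 0.982 (0.667 to 1.45) in cKit+/DDR2- replicate 2 and 0.726 (0.628 to 0.838) in cKit+/DDR2+/CD45+. After these, Col15a1 followed in capillary cells of cKit+/DDR2- replicates 1 and 2 and cKit+/DDR2+/CD45-, with 87.0, 37.8 and 75.8 CPM. In capillary cells of cKit-/DDR2+ Col15a1 had 41.9 CPM, below Col3a1 with 60.8 CPM.

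**Figure D3:**
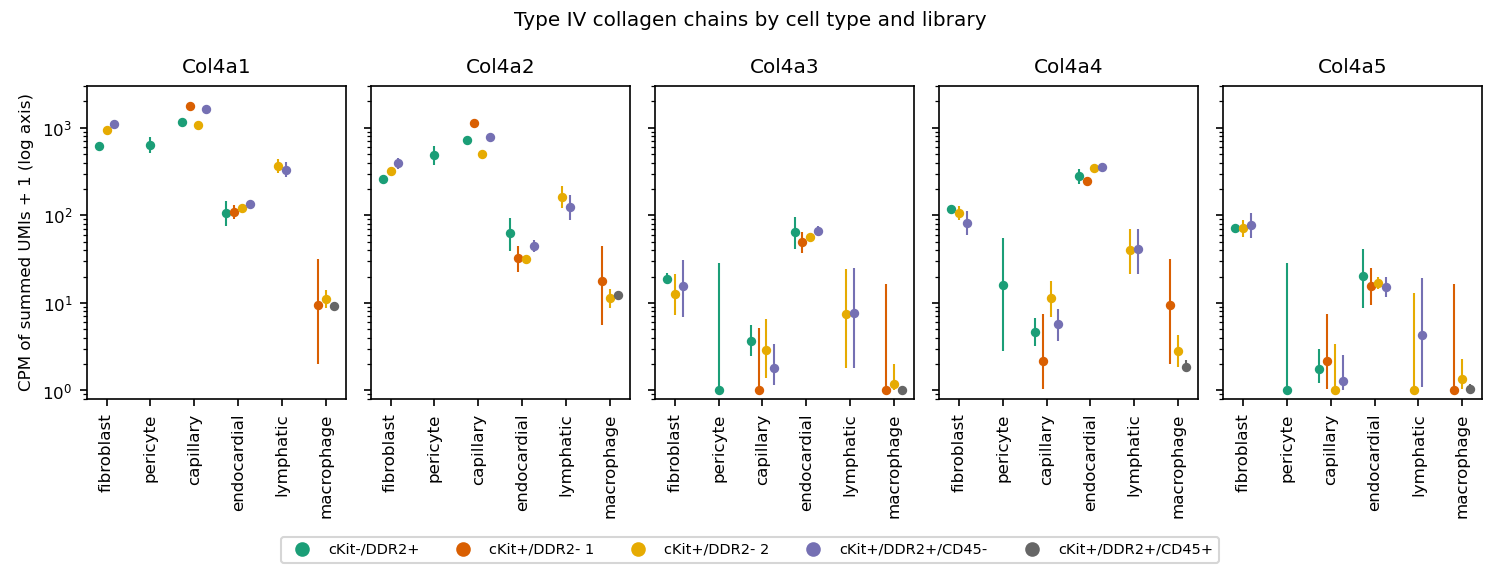
Levels of 5 type IV chains (panels) by cell type, as CPM plus 1 on a log axis, 1 point per library (colour) with its 95% counting interval. Col4a2 is highest in capillary cells, Col4a1 of capillary cells (from 1080.5 CPM) overlaps that of fibroblasts (up to 1113 CPM), and Col4a3 and Col4a4 are highest in endocardial cells, each of the 4 endocardial points lying above all points of the other types.

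Endocardial cells held another set of type IV chains. Col4a4, the α4 chain known from the glomerular basement membrane, had 281, 244, 342 and 353 CPM in the libraries cKit-/DDR2+, cKit+/DDR2- replicates 1 and 2 and cKit+/DDR2+/CD45-. Capillary cells had between 1.15 and 10.2 CPM of it, fibroblasts between 81.4 and 116 CPM and lymphatic cells 39.0 and 39.8 CPM. Col4a3, its head-to-head neighbour and partner, had 63.9, 48.0, 54.9 and 65.0 CPM in endocardial cells and at most 2.70 CPM in capillary cells. Neither chain's endocardial values overlapped those of any other type. The ratio of Col4a4 to Col4a3 was 4.39 (2.77 to 7.24), 5.08 (3.76 to 6.97), 6.23 (5.65 to 6.88) and 5.43 (4.74 to 6.25), and in fibroblasts 6.45 (5.50 to 7.60), 9 (5.06 to 17.4) and 5.57 (2.46 to 14.8), so the ratios of the 2 types did not part beyond their intervals. Col4a5, their X-linked partner, had 14.2 to 19.5 CPM in endocardial cells and 69.9 to 77.2 CPM in fibroblasts.

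After thinning every cell to 2000 UMIs, 51.4%, 44.9%, 46.2% and 48.6% of endocardial cells had a UMI of Col4a4 in cKit-/DDR2+, cKit+/DDR2- replicates 1 and 2 and cKit+/DDR2+/CD45-. Without thinning it was 82.1% to 89.1%, at median depths of 9632.5 to 11331 UMIs. Capillary cells gave 0% to 1.76% after thinning at median depths of 5015.5 to 6654, and macrophages of cKit+/DDR2+/CD45+ 0.127% at 11180. Thinning left out 0 to 13 endocardial cells and 8 to 90 capillary cells per library.

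In the comparison with capillary cells of the same 4 libraries, 11 of the 22 chains fitted were higher in endocardial cells and 3 were lower. Of all genes tested, 9.86% were higher and 9.41% lower (limma as above). The 22 chains fitted had a median of 1.98 on the log2 scale, against -0.06 over all genes. Here too a chain can pass the filter through the type in which it is high. Neither the count nor the median therefore supports more than the single values. Col4a4 differed by 5.91 ± 0.48 (adjusted p from limma 3.7e-06), Col4a3 by 4.80 ± 0.35, Col23a1 by 4.41 ± 0.55 and Col4a5 by 3.51 ± 0.45. The 3 chains lower in endocardial cells were Col4a2 (-4.21 ± 0.26), Col15a1 (-3.57 ± 0.45) and Col4a1 (-3.56 ± 0.16, adjusted p from limma 9.99e-08). Col4a1 stood at 106, 109, 122 and 134 CPM in endocardial cells, and Col15a1 at 11.1, 2.77, 1.63 and 3.68 CPM, all below every capillary value. The count depends on leaving out cells with markers of several types: when these were kept in each type, 1 chain was higher (Col4a4) and 2 were lower, and Col23a1 (1.17), Col1a2 (1.23) and Col15a1 (-2.05) no longer passed. With the shared barcodes kept in cKit+/DDR2+/CD45+, 7 chains were higher and 3 lower.

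**Figure D4:**
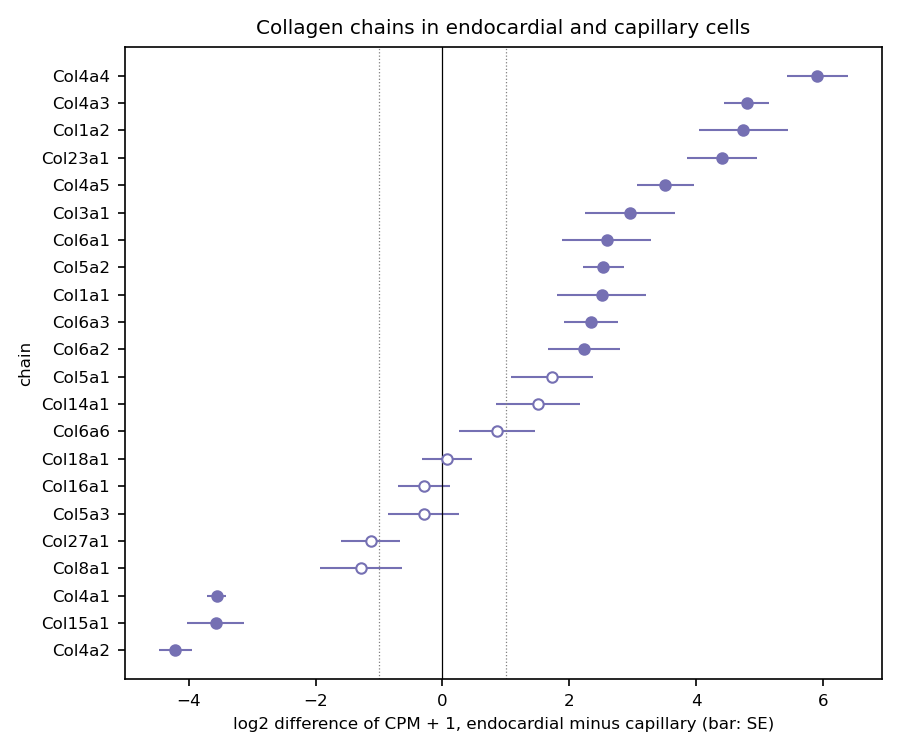
Log2 difference of CPM plus 1 between endocardial and capillary cells for the 22 chains fitted (points, with the standard error as bars and dotted lines at 2-fold). Filled points passed the test: 11 chains lie to the right, led by Col4a4 at 5.91, and Col4a2, Col15a1 and Col4a1 lie to the left.

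Fibrillar chains in endocardial cells were uneven. Col1a2 had 47.1, 66.9 and 88.9 CPM in replicates 1 and 2 of cKit+/DDR2- and in cKit+/DDR2+/CD45-, while Col1a1 had 11.1, 3.37 and 7.89 CPM. The ratio of Col1a2 to Col1a1 UMIs was 4.25 (2.24 to 8.76), 19.9 (13.7 to 29.9) and 11.3 (7.75 to 16.96), where fibroblasts gave 1.15 to 1.48, and the intervals of the 2 types did not overlap. Type V showed a like imbalance: Col5a2 had 17.6, 21.02 and 30.2 CPM and Col5a1 4.62, 7.43 and 8.42 CPM, with ratios of Col5a1 to Col5a2 of 0.263, 0.354 and 0.278 in endocardial cells and of 1.25, 1.26 and 1.82 in fibroblasts. In type VI, Col6a3 exceeded Col6a2 in these 3 libraries (ratios of 2.00, 1.88 and 3.20), the reverse of their order in fibroblasts.

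Where these levels stand beside the same 4 fibroblast genes depends on the gene. In endocardial cells Gsn stood at 0.360% and 0.464% and Dpt at 0.697% and 0.751% of the fibroblast level in cKit+/DDR2- replicate 2 and cKit+/DDR2+/CD45-. Col1a1 (0.344% and 0.647%) and Col3a1 (0.655% and 0.960%) were close to these. Col1a2 (5.23% and 6.34%), Col5a2 (8.36% and 13.3%), Col6a1 (7.31% and 2.47%) and Col6a3 (10.4% and 12.3%) were above Gsn and Dpt. All of them were below Dcn (13.7% and 16.7%) and Lum (21.4% and 23.2%). In cKit+/DDR2- replicate 1, where 1 fibroblast was gated among 436 cells, endocardial Gsn was 18.5 CPM and Col1a2 47.1 CPM. Endocardial cells held Dcn at 2251 to 4695 CPM and Lum at 437 to 612 CPM over the 4 libraries, and the part of fibroblast RNA in the chains' levels was not tested.

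**Figure D5:**
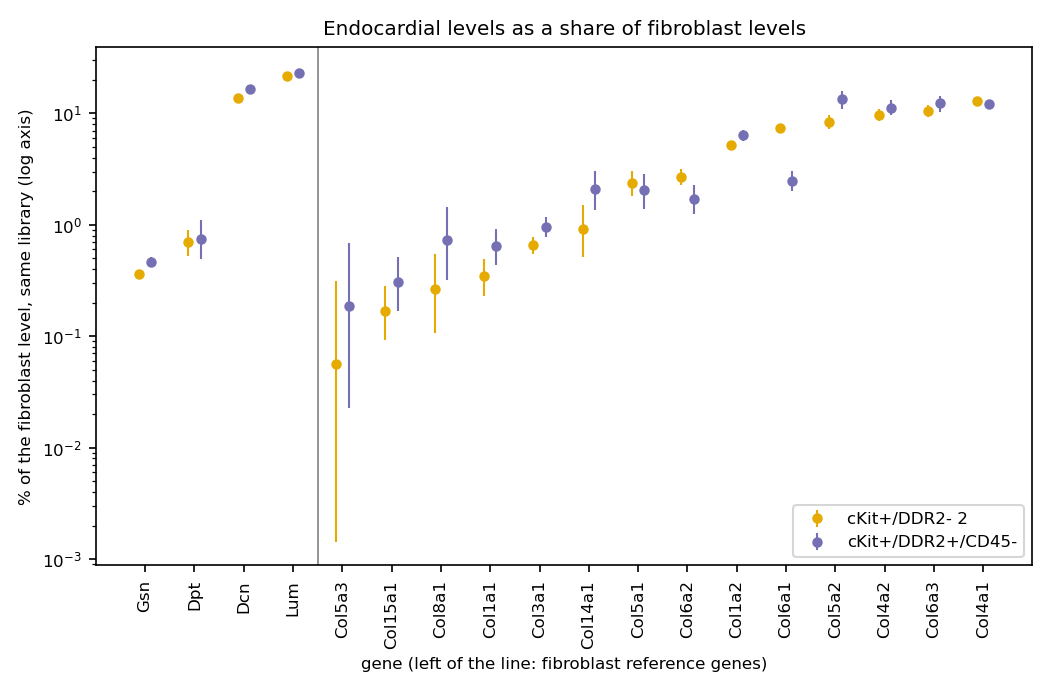
Level in endocardial cells as a percentage of the fibroblast level of the same library (log axis, bars are 95% counting intervals) for Gsn, Dpt, Dcn and Lum, left of the line, and for the chains with at least 100 CPM in fibroblasts of both libraries. Col1a1 and Col3a1 lie between 0.344% and 0.960%, near Gsn and Dpt, and Col1a2 lies at 5.23% and 6.34%, above Gsn and Dpt and below Dcn and Lum.

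By the test against capillary cells, Col1a2 was higher in endocardial cells by 4.75 ± 0.70 (adjusted p from limma 0.00027), Col5a2 by 2.53 ± 0.32, Col6a1 by 2.59 ± 0.70, Col6a2 by 2.24 ± 0.57 and Col6a3 by 2.34 ± 0.42. Col3a1 (2.95 ± 0.71, adjusted p from limma 0.0066) and Col1a1 (2.51 ± 0.70, adjusted p from limma 0.015) also passed. Without cKit+/DDR2- replicate 1, Col1a1 (2.15), Col3a1 (2.49) and Col6a1 (2.41) no longer did, and Col1a1 also failed without cKit+/DDR2+/CD45- (2.65). Without cKit+/DDR2- replicate 2, Col6a2 (1.86) failed. Col5a1 (1.72 ± 0.65, adjusted p from limma 0.056) did not pass with all libraries and did without cKit-/DDR2+ (2.15). With the shared barcodes kept, Col1a1, Col3a1, Col6a2 and Col6a3 failed, at 2.01, 2.36, 1.79 and 1.88.

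Endocardial cells of cKit-/DDR2+ differed from those of the other libraries. They had Col3a1 at 520 CPM, Col1a2 at 319.7 CPM and Col1a1 at 203 CPM, and the ratio of Col1a2 to Col1a1 was 1.58 (1.16 to 2.14). Col6a5, a type VI chain, was highest in them, at 108 CPM from 39 UMIs, against 3.53 CPM from 35 UMIs in fibroblasts and 2.32 CPM from 12 UMIs in capillary cells of that library. Col6a5 is listed in no other library. Msln and Upk3b were present in the same 39 cells, and Gsn was at 1459 CPM. When cells with a UMI of either mesothelial gene were left out, the gap between cKit+/DDR2+/CD45- and cKit-/DDR2+ went from -4.52 to -3.37 for Col1a1 and from -4.30 to -3.05 for Col3a1 on the log2 scale. Then 3 of the 5 chains counted lower in that comparison remained: Col1a2 was under 2-fold at -0.89, and Col14a1 had fewer than 20 UMIs. The part of mesothelial or fibroblast RNA in these levels was not tested further. Col4a4 and Col4a3 of these cells lay within the range of the other endocardial sums, and Col4a1, at 106 CPM, just under their lowest of 109 CPM.

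Lymphatic cells were gated in 2 libraries, with 40 cells in cKit+/DDR2- replicate 2 and 27 in cKit+/DDR2+/CD45-. Col4a1 led with 367 and 332 CPM, then Col4a2 with 162 and 123 CPM, Col23a1 with 127 and 82.9 CPM and Col18a1, the source of endostatin, with 55.2 and 92.9 CPM. Col23a1 was also high in endocardial cells, with 41.7, 123, 80.1 and 73.1 CPM in cKit-/DDR2+, cKit+/DDR2- replicates 1 and 2 and cKit+/DDR2+/CD45-. Elsewhere it was at most 10.2 CPM, in capillary cells of cKit+/DDR2- replicate 2. Those capillary cells also held the 5 lymphatic markers at 1467 CPM in sum, against 55.5 CPM in capillary cells of cKit+/DDR2+/CD45-, where Col23a1 was 0.275 CPM. The part of lymphatic RNA in that level was not tested. Lymphatic cells had no UMI of Col15a1, which allows up to 9.74 and 9.95 CPM (3 counts per library). In cKit+/DDR2+/CD45- capillary cells were thus at least 7.62-fold higher.

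Of the 22 chains fitted, 8 were higher and 4 lower in lymphatic than in capillary cells (limma, 2 and 4 libraries, 2 of them shared). Of all genes tested, 10.6% were higher and 7.34% lower. The median of the 22 fitted was 0.62, against 0.08 over all genes. With the same filter, this count and median support no more than the single values. Col23a1 differed by 4.66 ± 0.71 (adjusted p from limma 0.00066), Col5a2 by 3.08 ± 0.42 and Col4a4 by 2.90 ± 0.61. Lower were Col4a1 (-2.11 ± 0.20), Col4a2 (-2.29 ± 0.34) and Col6a3 (-1.68 ± 0.55), besides Col15a1, whose fitted value rests on the 0 counts. Col14a1 (3.10 ± 0.86), Col3a1 (2.91 ± 0.92), Col4a3 (1.80 ± 0.46), Col16a1 (1.54 ± 0.52) and Col18a1 (1.52 ± 0.51) rest on at most 28 UMIs per library. Few UMIs also stand behind Col5a2 (11 and 13), Col4a4 (12 and 12), Col23a1 (39 and 25) and Col6a3 (1 and 0). The 6 fibroblast markers summed to 805 CPM in lymphatic, 92.8 in capillary and 45482 in fibroblast cells of cKit+/DDR2- replicate 2. In cKit+/DDR2+/CD45- they summed to 1824, 40.1 and 40720 CPM in the same order. The part of fibroblast RNA in the lymphatic levels of these chains was not tested. With the gate at 2 UMIs 3 chains were higher, and with cells of several types kept in each type 0 were higher and 2 lower. With the shared barcodes kept, 4 chains were higher. Col3a1 (2.71) and Col6a3 (-1.61) failed without cKit+/DDR2- replicate 1, and Col18a1 (1.37) and Col6a3 (-1.50) without cKit-/DDR2+. Col1a1 (2.81) and Col1a2 (2.51), not called with all libraries, passed without cKit-/DDR2+.

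Macrophages had the smallest share of collagen UMIs of the gated types. Col14a1 led with 46.5 CPM in replicate 1 of cKit+/DDR2- (22 cells with 23 UMIs of all chains together), 28.4 in replicate 2 and 33.4 in the cKit+/DDR2+/CD45+ library. In cKit+/DDR2- replicate 2 Col14a1 was at 14.9% (12.7 to 17.4) of the fibroblast level, where Col1a1 was at 0.111%, Col3a1 at 0.115%, Dcn at 0.132% and Gsn at 0.719%. Col4a2 came second in cKit+/DDR2- replicate 1 and in cKit+/DDR2+/CD45+, and Col27a1 in cKit+/DDR2- replicate 2. Col27a1 had 4.23, 11.8 and 8.05 CPM, which in replicate 2 was 19.6% of the fibroblast level. Thinned to 2000 UMIs, 6.45% of the macrophages of cKit+/DDR2+/CD45+ had a UMI of Col14a1 and 1.74% one of Dcn, at a median depth of 11180. Without thinning it was 23.6% and 8.62%. In cKit+/DDR2- replicate 2, at a median depth of 9419, the thinned shares were 5.38% (3.61 to 7.69) for Col14a1 and 4.62% (2.98 to 6.79) for Dcn, so the share of cells with a Col14a1 UMI did not stand above that of a fibroblast gene there, while by CPM it was 28.4 against 21.7 for Dcn. The part of free fibroblast RNA in these shares was not tested. Among capillary cells of cKit+/DDR2+/CD45-, at a median depth of 6302.5, 0.419% had a UMI of Col14a1 after thinning.

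Of the 22 chains fitted, Col14a1 alone was higher in macrophages than in capillary cells (3.95 ± 0.86, adjusted p from limma 0.0022), and 7 were lower. Of all genes tested, 13.1% were higher and 24.8% lower (3 and 4 libraries, 2 of them shared). The median of the 22 fitted was -0.80, against -0.29. The chains passed the filter through other types, so this count and median support no more than the single values. Col4a1 differed by -7.13 ± 0.20 (adjusted p from limma 1.7e-09), Col4a2 by -5.69 ± 0.34, Col18a1 by -4.22 ± 0.51 and Col15a1 by -2.91 ± 0.58. Col16a1 (-1.96), Col6a3 (-1.99) and Col5a2 (-1.29) were the other 3, at capillary levels of at most 10.2 CPM. Col14a1 no longer passed without cKit+/DDR2- replicate 1 (3.56), which leaves replicate 2 as the one library with both types. Without that replicate Col5a2, Col6a3 and Col16a1 also failed, Col27a1 (1.68) was called higher and Col4a4 (0.09 with all libraries) turned to -1.496. Without replicate 2 the count lower was 4, Col4a4 was called higher at 1.84, and Col15a1 (-2.15), Col16a1 (-2.21) and Col5a2 (-1.30) failed. With the shared barcodes kept, 2 chains were higher and 4 lower. Keeping cells of several types in each gave 0 higher, with Col14a1 at 1.12, and 3 lower.

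The 26 pericytes of cKit-/DDR2+ shared chains with both neighbours. Col4a1 had 642 CPM (85 UMIs) and Col4a2 483 CPM (64 UMIs), and then came Col3a1 at 295 CPM, Col1a2 at 219 CPM, Col6a1 at 196 CPM, Col5a2 at 151 CPM and Col5a3 and Col1a1 at 106 CPM each. With 1 library there is no test. Of 6 chains measured well enough (50 CPM and 20 UMIs in the higher type), 4 were at least 2-fold higher in pericytes than in capillary cells (Col5a2, Col6a1, Col1a2 and Col3a1) and 0 lower, where 10.9% and 28.9% of all genes were. Of 19 chains, 15 were at least 2-fold higher in fibroblasts than in pericytes and 0 lower, where 25% and 13% of all genes were. The exceptions were Col4a1, Col4a2, Col5a2 and Col5a3, with log2 ratios of -0.05 (-0.36 to 0.28), -0.88 (-1.24 to -0.50), 0.64 (0.02 to 1.36) and 0.12 (-0.63 to 1.00). A chain can enter both counts through the type in which it is high, as Col5a2 did at 10.2 CPM in capillary cells. In pericytes 20 UMIs amount to 151 CPM, so a chain needs a higher level there to be measured. Neither count therefore supports more than the single values. Pericytes had no UMI of Col14a1 or Col4a5, and fibroblasts were at least 4.61-fold and 3.16-fold higher. Fibroblast reference genes in the pericytes were at 0.345% (Lum) to 2.17% (Dpt) of the fibroblast level, below Col1a1 (8.79%), Col1a2 (12.3%) and Col3a1 (14.6%). The 6 capillary markers summed to 3089 CPM in pericytes and to 25245 CPM in capillary cells of that library, and their part in the type IV level was not tested.

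Genes that fold, modify, trim and cross-link collagen were counted in a list of 29, of which 20 passed the filter. Against capillary cells, 12 were higher and 0 lower in fibroblasts, where 13.7% and 17.1% of all genes were, and 5 and 2 in endocardial cells, where 9.86% and 9.41% were. In lymphatic cells it was 3 and 1, where 10.6% and 7.34% of all genes were, and in macrophages 0 and 10, where 13.1% and 24.8% were. The median log2 differences were 1.30, 0.32, 0.22 and -1.47, beside -0.13, -0.06, 0.08 and -0.29 over all genes. A gene of the list can also pass the filter through the type in which it is high. These counts and medians therefore support no more than the single values. In fibroblasts Loxl1 (7.43 ± 0.63) and Loxl2 (4.63 ± 0.43), of the lysyl oxidase family that cross-links fibrils, Pcolce2 (7.07 ± 0.71), an enhancer of C-terminal trimming, and Adamts2 (5.62 ± 0.73), which removes the N-terminal propeptide, stood furthest above capillary cells. Endocardial cells were higher in P3h3 (3.36 ± 0.24), of the prolyl 3-hydroxylase family, Loxl1 (2.93 ± 0.56), P3h4 (1.69 ± 0.36) and the chaperone Fkbp10 (1.64 ± 0.37), and lower in Plod1 (-2.64 ± 0.19), a lysyl hydroxylase, and Bmp1 (-1.73 ± 0.51), the C-terminal protease. Lymphatic cells were higher in P3h3 (3.71 ± 0.31), Loxl2 (3.21 ± 0.50) and Fkbp10 (1.503 ± 0.48) and lower in Pcolce (-3.29 ± 0.85). Macrophages were lower in Serpinh1 (-7.13 ± 0.55), the chaperone specific to collagen, in Plod2 (-4.36 ± 0.32), Pcolce (-3.18 ± 0.85) and Bmp1 (-3.03 ± 0.66). All values are limma log2 differences with SE at adjusted p below 0.05.

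Between sorts, the same type could be compared without a test, as 3 of the 4 sorts have 1 library. A chain was counted as apart when it was at least 2-fold apart, the higher group having 50 CPM and 20 UMIs, and in both cKit+/DDR2- libraries where both entered. In fibroblasts 19 chains were measured. Between cKit+/DDR2- replicate 2 and cKit-/DDR2+, 0 were apart in either direction, where 0.995% of all genes were higher and 1.37% lower. Between cKit+/DDR2+/CD45- and cKit-/DDR2+, Col14a1 (1.70 on the log2 scale of CPM plus 1, counting interval of the plain ratio 1.47 to 1.95) and Col5a3 (1.27, 1.01 to 1.54) were higher and 0 were lower, where 1.48% and 1.66% of all genes were. When cells of several types were kept in each, Col5a3 was under 2-fold at 0.65, Col14a1 was at 1.01 and 1 chain was lower. Col14a1 was also nearly 2-fold higher in cKit+/DDR2- replicate 2 (0.86, 0.65 to 1.08). The median chain differed by 0.13 and 0.40 in these comparisons, beside -0.04 and 0.02 over all genes. Both use the same cKit-/DDR2+ fibroblasts, so they are not independent, and the cKit+/DDR2+/CD45- fibroblasts are 36 cells.

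In capillary cells 0 of 3 chains were apart between cKit+/DDR2+/CD45- and cKit+/DDR2-, where 0.275% of all genes were higher and 0.612% lower. Against cKit-/DDR2+, Col4a1 (0.50), Col4a2 (0.11) and Col15a1 (0.84) were under 2-fold, and Col3a1 was lower (-3.94), 0 of 4 being higher and 1 lower, where 1.19% and 1.79% of all genes were. When cells of several types were kept in each, 10 chains were lower, a count given without the share of all genes at that setting. That Col3a1 level of 60.8 CPM is the one set above beside the fibroblast reference genes. In endocardial cells 0 of 5 chains were apart between cKit+/DDR2+/CD45- and cKit+/DDR2- (0.192% and 0.32% of all genes), with Col4a4 at 0.04 and 0.53 and Col4a3 at 0.24 and 0.43 against the 2 replicates. Against cKit-/DDR2+, 5 of 10 were lower (Col1a1, Col1a2, Col3a1, Col14a1 and Col6a5) and 0 higher (4.88% and 2.62% of all genes), the endocardial sum with mesothelial genes described above. Of these, Col14a1 was at -0.74 with the gate at 2 UMIs, where 3 chains were lower, and 13 were lower when cells of several types were kept. The share of all genes is not given for these 2 settings either. In lymphatic cells 0 of 4 chains were apart (3.73% of all genes higher and 4.33% lower), and in macrophages no chain reached 50 CPM (0.169% of all genes higher and 0.102% lower). Replicates 1 and 2 of cKit+/DDR2- were themselves 2-fold apart in 2 of 3 chains of capillary cells (Col4a2 and Col15a1) and in 1 of 6 of endocardial cells (Col6a1). Of all genes, 7.49% were so apart in capillary cells and 3.28% in endocardial cells.

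Whole libraries differed far more, with their makeup. Col1a1 summed over all cells was 772 CPM for cKit-/DDR2+, 12.1 and 63.6 for replicates 1 and 2 of cKit+/DDR2-, 67.6 for cKit+/DDR2+/CD45- and 9.26 for cKit+/DDR2+/CD45+. Against cKit-/DDR2+, 13 of 16 chains were lower and 1 higher (Col4a4, 1.06) in cKit+/DDR2+/CD45-, where 9.77% and 7.45% of all genes were, and 13 of 17 lower and 1 higher (Col23a1, 4.54) in cKit+/DDR2-, where 8.1% and 6.22% were. Between cKit+/DDR2+/CD45- and cKit+/DDR2- 0 of 9 were apart in both replicates, where 0.927% of all genes were higher and 2.75% lower. The 2 replicates were 2-fold apart from each other in 7 of 9 chains and in 8.94% of all genes. In cKit+/DDR2+/CD45+ 8 of 8 chains were lower than in cKit+/DDR2+/CD45-, where 22.8% of all genes were lower and 18.5% higher. Fewer cells of a type and less RNA per cell cannot be told apart in such sums. The gated fibroblasts, whose Col1a1 was 979 to 1219 CPM in 3 sorts, were 30.6% of cells in cKit-/DDR2+, 3.51% in cKit+/DDR2- replicate 2 and 2.71% in cKit+/DDR2+/CD45-.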

How the data were processed

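Single-cell 3′ libraries (5, of 4 sorts of heart cells) were analysed. Reads were processed by the authors with Cell Ranger against mm10 and with Seurat 4.0.4, per the submitters' processing notes; filters and annotation are not given in the sources used here. The deposited values are the natural log of 1 plus UMIs per 10000 of a cell. Whole UMIs were recovered from them for 100% of values (tolerance 0.01), and cells under 200 genes or 500 UMIs were dropped (1 cell). No doublet caller was run; cells with markers of several types were left out. Where a library's table lacks a gene, 0 was used. UMIs were summed per gated type and library (at least 20 cells) and tested with limma 3.58.1 in R 4.3.3 (limma-trend, cell type plus library block, genes with at least 50 CPM in 2 sums, Benjamini-Hochberg adjustment over all genes fitted). Between sorts, 2-fold differences were counted without a test. Replicate numbers of cKit+/DDR2- follow accession order and pair no samples. Exact 95% intervals cover counting error only. On simulated counts for the endocardial comparison (4111 genes), 99 of 100 genes changed 2-fold and 100 of 100 changed 4-fold were recovered, with 3 false calls. The simulation gave unchanged genes the same mean in all cell types, a fixed spread and no library effect, and counted calls by adjusted p alone. It checks the code and does not measure how many real 2-fold changes the test finds. The members and lists were chosen with earlier results of these data known. Genes named are the chains reaching 50 CPM in a gated type and at most 4 called genes each way of the maturation list, those with the largest differences. Sums and intervals came from scipy 1.17.1 and pandas 2.3.3 under Python 3.11.15, and 16 alternative settings were run.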

Additional observations from a re-analysis of the deposited data

Results flagged for a closer look

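In 4 cases the difference of a chain between cKit+/DDR2+/CD45- and cKit-/DDR2+ had point values of opposite sign in 2 cell types. For Col1a1 the fibroblast value was not apart from 0. The difference between the types was not tested in any case, because each of these sorts has 1 library. Col3a1 differed by -3.94 on the log2 scale in capillary cells and by 0.40 in fibroblasts, a gap of -4.34. In endocardial cells Col3a1 differed by -4.30 (a gap to fibroblasts of -4.69). Col1a1 differed by -4.52 in endocardial cells and by 0.02 in fibroblasts (counting interval of the plain ratio -0.10 to 0.14), a gap of -4.54. Col14a1 differed by -2.80 in endocardial cells and by 1.70 in fibroblasts, a gap of -4.51. The fibroblast values of Col3a1 and Col1a1 were under 2-fold. The endocardial value of Col14a1 ranged from -2.80 to -0.74 over 11 settings and was under 2-fold at -0.74, with the gate at 2 UMIs. The cKit-/DDR2+ endocardial sum in the last 3 is that of 39 cells with mesothelial genes, and the capillary Col3a1 level there stood at 3.02% of the fibroblast level beside 2.10% to 4.27% for Dcn, Gsn, Lum and Dpt. The part of RNA from other cells in these gaps was not tested.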

How the results depend on the processing

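Counts of chains are given as they changed, without the share of all genes at each setting. They show how the counts moved and do not set the chains against other genes. With CPM taken without Gm42418, Lars2, mitochondrial and ribosomal protein genes, 1 chain was lower in pericytes than in capillary cells, and between cKit+/DDR2+/CD45- and cKit-/DDR2+ 2 were lower in capillary cells and 2 higher in whole libraries. With 5 CPM added, 4 were lower in macrophages. At a minimum of 20 CPM, 1 was lower in pericytes, 5 in capillary cells and 1 in fibroblasts of cKit+/DDR2+/CD45- against cKit-/DDR2+, 3 were higher in its whole library, and 16 were lower in cKit+/DDR2+/CD45+ than in cKit+/DDR2+/CD45-. With the gate at 2 UMIs, 3 were higher in lymphatic cells, 2 higher in macrophages and 1 lower in pericytes, and between sorts 2 were lower in capillary cells, 1 higher in cKit+/DDR2- fibroblasts and 3 lower in endocardial cells; Col4a3 in lymphatic cells turned to -0.26. With cells of several types kept in each, 1 chain was higher in endocardial cells, 0 higher and 2 lower in lymphatic cells and 0 higher and 3 lower in macrophages, and between sorts 10 were lower in capillary cells against cKit-/DDR2+ and 1 against cKit+/DDR2-, 1 higher and 1 lower in fibroblasts, 1 higher and 13 lower in endocardial cells and 2 lower in macrophages; Col23a1 in fibroblasts turned to -1.81 and Col6a3 in lymphatic cells to 0.37. With at least 50 cells, 3 were lower in macrophages, and lymphatic cells and pericytes gave no value. With means over cells, 2 were higher in macrophages and 1 lower in pericytes, and 1 lower in cKit+/DDR2- fibroblasts. Of the alternatives chosen after seeing the data, keeping the shared barcodes gave 7 higher in endocardial cells, 4 higher in lymphatic cells and 2 higher and 4 lower in macrophages. Giving cells of several types to their highest marker gave 5 lower in endocardial cells, 2 higher in macrophages and 7 higher in pericytes, and between sorts 4 and 1 lower in capillary cells and 1 higher in cKit+/DDR2- fibroblasts. Leaving out endocardial cells with mesothelial UMIs gave 3 lower in endocardial cells of cKit+/DDR2+/CD45- against cKit-/DDR2+. The cause of these changes was not tested.

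Leaving out 1 library at a time gave 15 to 18 chains higher and 0 to 1 lower in fibroblasts, 8 to 12 and 3 to 4 in endocardial cells, 7 to 8 and 3 to 4 in lymphatic cells and 1 to 2 and 4 to 7 in macrophages. Between sorts it gave 0 to 1 lower in endocardial cells of cKit+/DDR2+/CD45- against cKit+/DDR2-, 2 to 5 higher in whole libraries of the same comparison and 13 to 15 lower in cKit+/DDR2- against cKit-/DDR2+. Without cKit+/DDR2- replicate 1, Col4a4 in macrophages was -1.496, and without replicate 2 it was 1.841. Lymphatic cells without cKit+/DDR2- replicate 2 or cKit+/DDR2+/CD45- gave no value. Of all other summary counts, 352 stayed within 1.5 times. No paired analysis was possible because the replicate numbers follow accession order and 3 of the 4 sorts have 1 library. Depth limits the lymphatic, pericyte and cKit-/DDR2+ endocardial sums, which hold 26 to 40 cells each.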
